A study of Mus musculus with 18 samples.

Results

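Wild-type E36 mouse embryonic stem (ES) cells were compared with the embryoid bodies (EBs) made from them, by poly(A) RNA sequencing of 1 library of each. The comparison took in all 29851 RefSeq transcripts of the deposited expression table, of which 29300 were matched to 22870 gene symbols, and 14047 of the resulting 23421 genes reached an expression of 1 FPKM (fragments per kilobase of transcript and per 1e6 mapped fragments) in at least 1 of the 2 libraries. These 2 libraries are part of a series of 18 samples, 6 of them RNA-seq. The ES cells were wild type, of 129/Ola background like the EBs and the E14 cells below, and grew on gelatin in medium with 15% serum and leukemia inhibitory factor (LIF), the cytokine that holds mouse ES cells undifferentiated. The EBs came from the same wild-type line: LIF was withdrawn, 1000 cells were hung in each 20 µl drop for 48 h, 0.5 µM all-trans-retinoic acid was present from day 2 to day 5, and the floating aggregates were kept without LIF until day 9. The E14 library served as a yardstick for undifferentiated cells: E14 ES cells, grown in the same medium, transduced with a scrambled control short hairpin RNA and selected with puromycin (E14 shCtrl). Eed-knockout ES cells and Eed-knockout EBs, 1 library of each, are quoted only for genes whose transcripts moved in opposite directions. The labels give them the same background, serum, drop and retinoic acid settings as their wild-type counterparts. No other day and no EBs without retinoic acid were analysed here, so the effects of aggregation, LIF withdrawal and retinoic acid cannot be told apart.

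Embryoid bodies are free-floating aggregates in which ES cells leave the pluripotent state and enter several lineages at once. Retinoic acid binds nuclear retinoic acid receptors that sit on DNA as dimers with retinoid X receptors, and in the embryo it posteriorizes the neural tube and opens the HOX clusters from their 3′ ends. Pulses of retinoic acid are widely used to steer EBs toward neural cells of hindbrain and spinal cord character. Bulk RNA from such aggregates averages over all cells present, so fewer cells of a type and less RNA per cell cannot be told apart.

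Each difference below is log2(FPKM + 1) in the EB library minus log2(FPKM + 1) in the ES library, so it understates the change of low genes. A gene is called higher or lower when the difference is at least 1 in size. With 1 library per group there is no test and no replicate error, and the calls describe these 2 libraries. The median difference over the 14047 expressed genes was 0.03. Of these genes, 2855 were higher in the EBs (20.3%), 2100 were lower (14.9%) and 9092 stayed within the rule, with a difference below 1 in size. These shares are the background for every list count below. A gene low in 1 library counts as expressed only by being high in the other. This draws medians over expressed members away from 0 and raises the shares of expressed members that are called. For some lists the median over all measured members is therefore given too. Differences of at least 3 were seen for 372 genes upward and 181 downward. The E14 shCtrl library gives a partial measure of how far 2 undifferentiated lines lie apart. By the same rule 304 of the 14047 genes (2.16%) were higher in it than in the E36 ES cells and 720 (5.13%) were lower. With E14 shCtrl as the undifferentiated sample, 3409 genes (24.3%) were higher in the EBs and 1828 (13.0%) lower. Because the 14047 were chosen on the E36 ES and EB libraries, genes that reached 1 FPKM only in E14 shCtrl were left out. This choice holds down the 304 and the 1828. Against both ES libraries at once, 2497 genes (17.8%) were higher and 1411 (10.0%) lower. When the EB values were rescaled to the same FPKM total as the ES cells, which raised the median difference to 0.28, the calls became 3655 higher and 1520 lower (70.6% of calls higher, against 57.6%).

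**Figure D1:**
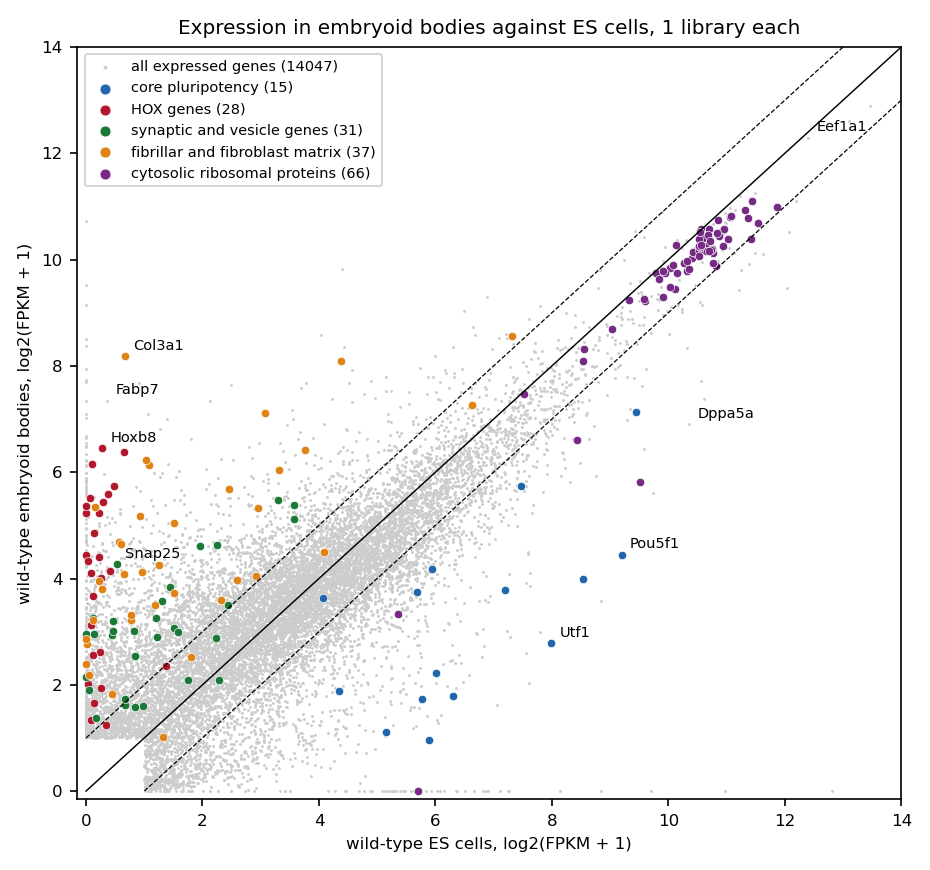
Expression of the 14047 expressed genes in wild-type EBs (vertical axis) against wild-type ES cells (horizontal axis), both as log2(FPKM + 1), 1 library each. The solid line marks equal values and the dashed lines a difference of 1. HOX, synaptic and matrix genes lie above the upper dashed line with few exceptions. The listed core pluripotency genes lie below the lower one except Tcf3 (E2A), and 61 of 66 ribosomal protein genes lie between the dashed lines.

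With small RNA genes and numbered loci left out, the genes with the highest increases were a mixture of matrix, neural and HOX genes. Col3a1, the fibrillar collagen of loose connective tissue, was at 0.591 FPKM in ES cells, 0.820 in E14 shCtrl and 289 in EBs, the largest increase among the genes so limited and at 5 FPKM or more (difference 7.51); over all expressed genes, small RNA genes included, differences reached 10.7. Fabp7, the brain lipid-binding protein of radial glia, went from 0.289 to 162, and the secreted neurite growth factor pleiotrophin (Ptn) from 0.875 to 203. Igfbp5 went from 1.10 to 135, Gas1, a Hedgehog co-receptor, from 1.41 to 111, the neuronal vesicle protein gene Nsg2 from 0.702 to 96.5, and Nrep, a protein of regenerating neurons, from 3.39 to 161. At the other end, Trh, the thyrotropin-releasing hormone gene, fell from 193.7 to 3.11 (E14 shCtrl 88.0). Tdh, the threonine dehydrogenase on which mouse ES cells depend, fell from 132 to 2.06, Tdgf1, the Nodal co-receptor Cripto, from 459 to 11, and Utf1, a chromatin protein of ES cells, from 253 to 5.86. Among less used ES genes, the phospholipase gene Pla2g1b fell from 64.1 to 1.54, Hsd17b14 from 67.4 to 1.71, the fatty acid transporter gene Slc27a2 from 26.8 to 0.211 and the elongation factor gene Tcea3 from 57.2 to 1.66. For each of these genes both ES libraries stood on the same side of the EB library.

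Marker genes of undifferentiated cells followed the labels. All 5 markers used for the ES state were lower in EBs: Pou5f1, the Oct4 gene, was at 586 FPKM in ES cells, 715 in E14 shCtrl and 20.8 in EBs, and Nanog at 146, 241 and 12.8. Esrrb was at 46.3, 142 and 1.88, Zfp42 (Rex1) at 372, 418 and 15.0, and Dppa5a at 1315, 2128 and 118. The EB library therefore still held 118 FPKM of Dppa5a and 20.8 of Pou5f1, values that do not say whether a few cells kept a high level or many a low one.

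Core pluripotency genes fell together. Of 15 such genes, all expressed, 14 were lower and none higher, with a median of -3.80, and the same 14 counted lower against both ES libraries. Zscan10 fell from 58.2 to 0.944, Sall4 from 53.6 to 2.33, Nr0b1 (Dax1) from 34.5 to 1.17 and Dppa4 from 77.6 to 2.45. Sox2, which also serves neural progenitors, kept more of its level, at 177 in ES cells and 52.6 in EBs, and Tcf3 (15.7 and 11.4) did not pass the rule. Among 27 genes of the naive state, 21 were lower and 1 higher, with a median of -2.71. The Krüppel-like factors Klf2, Klf5 and Klf4 fell from 103 to 6.86, 49.3 to 3.11 and 20.1 to 5.94, Tfcp2l1 from 11.6 to 0.920 and Prdm14, a repressor of DNA methylation, from 5.11 to 0.419. The receptor side of LIF signalling stayed within the rule: Lifr was at 8.37 and 5.8, Il6st (gp130) at 13.3 and 22.5, and Stat3 at 17.9 and 23.3. Tbx3 was the 1 gene of the list that was higher than in the E36 cells, 3.16 against 11.1, but it stood at 12.3 in E14 shCtrl.

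Genes of the early embryo and of the germ line went down in the same direction. Of 13 expressed early-embryo genes 12 were lower: Dppa3 (Stella) fell from 36.6 to 4.12, Ooep from 27.4 to 3.16 and Zscan4c, a gene of early cleavage whose close copies share reads, from 19 to 1.54. Of 28 expressed germ-line genes 17 were lower and 1 higher, with a median of -1.32 (-0.78 over all 39 measured). Tdrd12, a piRNA-pathway helicase, fell from 37.6 to 1.38, Mael from 7.97 to 0.617, Ddx4 (Vasa) from 6.47 to 0.639 and the synaptonemal gene Sycp3 from 4.6 to 1.09 (E14 shCtrl 12.9). Stra8, the retinoic acid-induced gatekeeper of meiosis, was at 1.40 in ES cells, 2.47 in EBs and 11.7 in E14 shCtrl, so it did not pass the rule.

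In the Nodal pathway ligands and co-factors fell. Of 18 expressed members 7 were lower and 3 higher. Nodal fell from 29.4 to 1.2, its antagonists Lefty1 and Lefty2 from 113 to 5.64 and from 69.2 to 4.23, its co-factor gene Foxh1 from 49.8 to 1.34, and Gdf3 from 48.8 to 1.99. The signal transducers Smad2 (9.79 and 11.7) and Smad4 (28.2 and 34.9) and the receptor Acvr2b (13.4 and 11.8) stayed within the rule, and Smad3 rose from 3.79 to 16.5. Of 15 expressed genes of the primed epiblast 5 were higher and 3 lower, so the list did not move one way. Otx2 (20.7 to 1.28) and Dnmt3b (72.5 to 2.94) fell, whereas Sox4 (17.6 to 165), Sox11 (11 to 79.2) and Cdh2 (9.53 to 43.3), which are shared with neural tissue, rose. Of 20 listed primitive streak and mesendoderm genes 11 did not reach 1 FPKM in either library. Of the other 9, 5 were higher and 1 lower, with a median of 1.11, but over all 20 the median was 0.0086. Against both ES libraries 5 were higher and none lower. The brachyury gene T was at 1.51 and 0.151, Mixl1 at 0.462 and 0.0966 and Eomes at 1.46 and 0.260. Gsc (0.422 to 8.48) and Lhx1 (0.0907 to 9.02) rose, and Lhx1 is also on the interneuron list below.

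Genes of retinoic acid handling were mostly higher in EBs. Of 12 expressed genes for retinoid synthesis and transport 7 were higher and 1 lower, and of 5 expressed genes for binding and breakdown 4 were higher. Crabp1, a cytosolic retinoic acid-binding protein, was at 15.3 FPKM in ES cells, 6.03 in E14 shCtrl and 382 in EBs, and Crabp2, which hands retinoic acid to the receptors, at 10.6, 4.93 and 143. The storage-side enzyme gene Dhrs3, which turns retinal back to retinol, rose from 1.78 to 13.1 and the synthesis enzyme Aldh1a2 (Raldh2) from 0.928 to 3.84. Of the 12 receptor and co-regulator genes 3 were higher (25%) and 2 lower (16.7%), near the 20.3% and 14.9% over all expressed genes. Against both ES libraries 2 were higher and 2 lower. Rarb rose from 0.127 to 18.1, Rarg fell from 51.2 to 8.31 (E14 shCtrl 84.2), and Rara stayed within the rule at 14.5 and 19.6. The degrading enzymes differed from each other. Cyp26b1 rose from 0.0671 to 5.01, whereas Cyp26a1 was at 1.48 in ES cells and 0.945 in EBs, and Cyp26c1 was listed at 0 in the EBs. Among 21 expressed genes listed as retinoic acid targets 13 were higher and 2 lower. Nr2f1 and Nr2f2, the COUP transcription factors, rose from 0.159 to 36.9 and from 0.000386 to 11.5, and the zinc-finger gene Tshz1 from 0.504 to 36.

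Rarb and Cyp26a1 are the 2 genes of the retinoic acid lists whose promoters hold a canonical response element, and they are printed because the same element is found in 1 gene that rose and in 1 that did not. The element searched was a direct repeat of hexamers, each of them AGGTCA or else AGTTCA or else GGTTCA, with 5 bases between them, on both strands of a 300-base window (250 bases before to 50 after each start) in the RefSeq promoters of GRCm38.p6. It was found in 20 of 32851 promoters (0.0609%), in 2 of the 57 promoters of 39 genes on the retinoic acid lists and in none of the 24 promoters of 22 HOX genes. Both sequences run 5′ to 3′ on the strand of the gene and end at the base before the start, the capitals mark the element, and in Cyp26a1 it reads on the opposite strand.
Rarb: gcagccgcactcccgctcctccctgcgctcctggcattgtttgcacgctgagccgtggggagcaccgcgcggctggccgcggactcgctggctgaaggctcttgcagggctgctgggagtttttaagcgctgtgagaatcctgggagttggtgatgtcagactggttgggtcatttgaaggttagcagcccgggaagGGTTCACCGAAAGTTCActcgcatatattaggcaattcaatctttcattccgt
Cyp26a1: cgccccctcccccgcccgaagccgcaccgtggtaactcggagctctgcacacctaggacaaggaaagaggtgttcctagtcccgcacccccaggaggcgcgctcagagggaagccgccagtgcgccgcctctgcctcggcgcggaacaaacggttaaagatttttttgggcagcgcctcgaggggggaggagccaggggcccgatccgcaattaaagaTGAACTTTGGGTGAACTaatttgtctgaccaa
The Rarb stretch lies at chr14:16575477-16575726 on the minus strand with its element 53 to 37 bases upstream of the start, and the Cyp26a1 stretch at chr19:37697558-37697807 on the plus strand with its element 32 to 16 bases upstream. The EB library was taken at day 9, after the retinoic acid period had ended, when Rarb stood at 18.1 FPKM and Cyp26a1 at 0.945. A match is a description of these letters and says nothing on receptor binding, which was not measured here.

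HOX genes rose by their place in the clusters. In ES cells no HOX gene of paralogue groups 5 to 9 exceeded 0.570 FPKM, and in E14 shCtrl none of them exceeded 0.747. Of the 39 HOX genes measured, 26 were higher in EBs by the rule, none was lower and 11 stayed below 1 FPKM in both libraries. All 11 belonged to paralogue groups 10 to 13, where only Hoxb13 (0.0604 to 1.54) of 12 genes passed. All 15 genes of groups 5 to 9 were higher, with a median of 28.1 FPKM in EBs, and 10 of the 12 genes of groups 1 to 4, with a median of 16.4. The highest levels were those of Hoxb8 (0.210 to 86.5), Hoxb9 (0.570 to 82.1), Hoxb6 (0.0711 to 70.3) and Hoxb2 (0.392 to 52.6). The Hoxb cluster had a median of 39.5 FPKM in EBs and stayed high through Hoxb9, whereas levels dropped past group 6 in the other clusters: Hoxa5 stood at 46.9, Hoxa7 at 5.11 and Hoxa9 at 3.06, and Hoxc6 at 40.4, Hoxc8 at 8.49 and Hoxc9 at 4.93. Of the group 1 genes, which answer retinoic acid early in differentiating cells, Hoxd1 rose from 0.202 to 2.83 and Hoxb1 (0.268 and 1.37, difference 0.91) did not pass the rule.

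**Figure D2:**
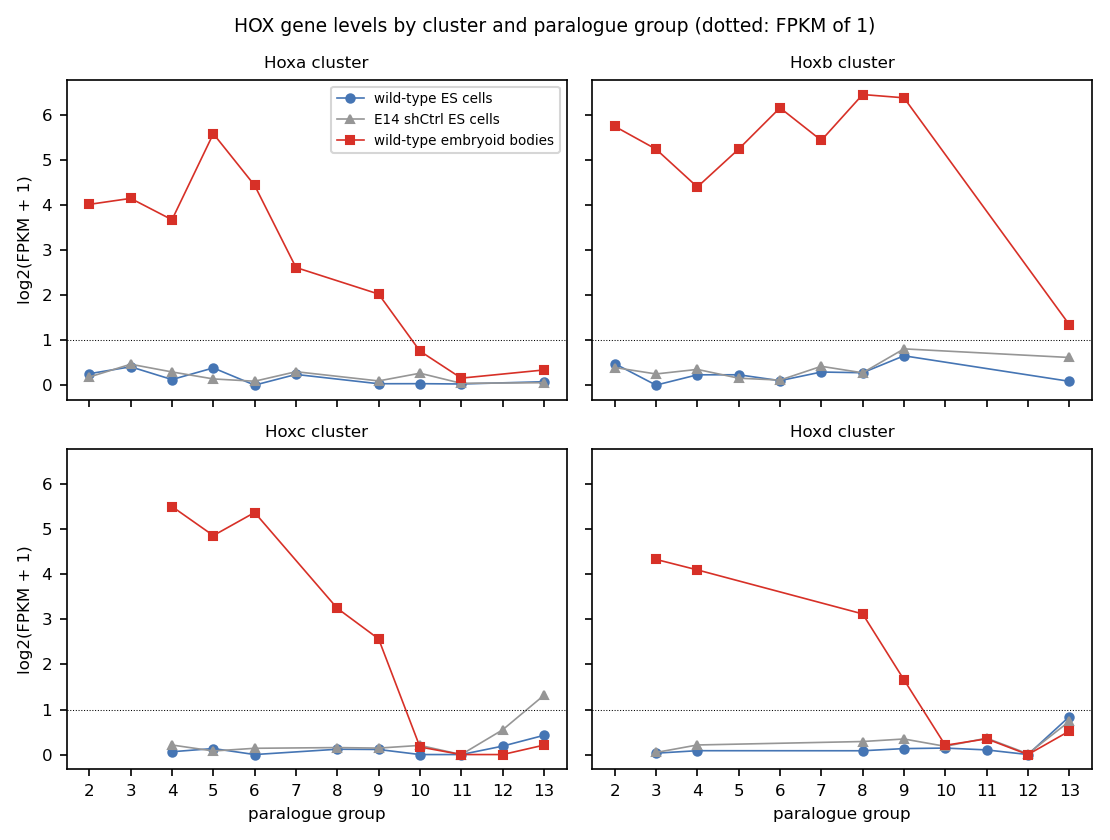
Level of the HOX genes of paralogue groups 2 to 13 as log2(FPKM + 1) by cluster (panels) and paralogue group (horizontal axis) in wild-type ES cells (blue), E14 shCtrl ES cells (grey) and wild-type EBs (red), 1 library each; the dotted line is 1 FPKM. Red points stand above both ES libraries from group 2 to group 9 in every cluster and stay below 1 FPKM at groups 10 to 12.

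Several partners of HOX proteins rose too. Meis1 and Meis2, homeodomain cofactors that bind DNA beside HOX proteins, went from 0.821 to 51.7 and from a listed 0 to 22.0, and Pbx3 from 5.84 to 41.4. Of the 11 genes of this class 6 were higher. Tgif1, a repressor of the same homeodomain class, was lower, from 42.3 to 3.10 in its main transcript and from 78.6 to 24.4 summed over transcripts.

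Neural genes formed the broadest group of increases. Of 32 genes of neural progenitors, all expressed, 19 were higher and 2 lower (median 2.24). Beside Fabp7, the dorsal zinc-finger factor Zic1 rose from 0.242 to 61.7, the POU factors Pou3f2 and Pou3f3 from 0.182 to 18.5 and from 0.156 to 21.7, Sox9 from 0.170 to 14.6 and the intermediate filament gene Vim from 117 to 629. Classical early markers moved less: Pax6 was at 4.05 in ES cells and 4.02 in EBs, Sox1 at 1.08 and 2.97, and nestin (Nes) at 23.6 and 32.1, none past the rule. In E14 shCtrl Nes stood at 2.24, below its level in the E36 ES cells. Of 22 expressed proneural helix-loop-helix genes 18 were higher and 1 lower (median 2.80, or 1.82 over all 26 measured). Neurog2 rose from 0.0622 to 11.7, Atoh1, the factor of cerebellar and hair-cell precursors, from 0.302 to 15.3, and the postmitotic factors Nhlh1 and Nhlh2 from 0.0173 to 23.9 and from 0.0794 to 20.3.

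In the neuronal cytoskeleton 21 of 30 genes were higher and 1 lower. Tubb3, the neuronal beta-tubulin, was at 62.4 FPKM in ES cells, 45.9 in E14 shCtrl and 290.2 in EBs, doublecortin (Dcx) at 0.000206, 0.000233 and 17.8, and tau (Mapt) at 0.60, 3.41 and 16.1. Not every gene called neuronal was low in ES cells: Stmn2 was at 88.5, 134 and 53.5, and Ina at 39.4, 23 and 41.3, both within the rule, and the heavy neurofilament Nefh fell from 17.3 to 0.352. Of 31 expressed synaptic and vesicle genes 25 were higher and none lower (median 1.85, or 1.55 over all 40 measured). Among the 25 were Snap25 (0.439 to 18.2), Syp (1.72 to 13.3), Vamp2 (10.9 to 40.8) and the AMPA receptor gene Gria2 (listed at 0, then 6.76). Of 42 expressed axon-guidance genes 32 were higher and 1, Sema3e, lower. The netrin receptor Dcc rose from 0.179 to 21.3, and Robo3, needed for axons to cross the midline, from 0.261 to 21.8. The secreted guidance genes Slit1 and Slit2 rose from 0.261 to 17.0 and from 0.674 to 23.9, and the axonal adhesion gene Cntn2 from 0.891 to 48.8. In the clustered protocadherins, which give neurons their surface identity, 17 of 22 expressed genes were higher and none lower, led by Pcdhgc3 (4.37 to 24.6). The median over the 22 was 1.42, or 0.90 over all 37 measured. Protocadherin transcripts share long stretches of sequence, so the values of single members are uncertain.

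Among the regional lists, interneuron factors had the largest share of expressed members that were higher (83.3%). The shares were 54.5% for forebrain and midbrain, 46.7% for hindbrain and posterior patterning, and 44.4% for motor and cranial factors. Members near 0 in ES cells enter these shares only by reaching 1 FPKM in EBs, so the shares follow in part from that filter. Of 38 listed interneuron factors 24 were expressed, 20 of them higher and none lower, with a median of 1.86 (1.06 over all 38 measured). Barhl1 reached 18.3, Lhx2 18.1, Barhl2 11.7, Pou4f1 11.2 and Lhx1 9.02 FPKM. Of 15 expressed genes of hindbrain and posterior patterning 7 were higher and 2 lower, with a median of 0.997 (0.29 over all 24 measured). Among the 7 are genes known from the dorsal neural tube and roof plate: Wnt1 went from 0.0210 to 34.5, Msx3 from 0.313 to 32.1, Msx1 from 0.677 to 20.9 and Pax3 from 0.0652 to 10.04. Of 25 listed forebrain and midbrain factors 14 were below 1 FPKM in both wild-type libraries, among them Six3 (0.140 in EBs), Emx1 (0.0862) and Otx1 (0.190). Of the other 11, 6 were higher and 1, Otx2, lower, with a median of 1.11, but over all 25 the median was 0.048. The highest difference was that of Lhx2 (0.610 to 18.1), which is also on the interneuron list. Of 9 expressed motor and cranial neuron factors 4 were higher and 1 lower, and 3 were higher than in both ES libraries. The 4 included Tbx2, Tbx3 and Isl1 (0.198 to 3.69), which other lineages share, and Tbx3 was not higher than in E14 shCtrl. The motor neuron genes Mnx1 (0.450), Lhx3 (0.0288) and Chat (0.128) stayed below 1 FPKM in EBs. Of 15 expressed genes of transmitter identity 8 were higher and 1 lower. The vesicular glutamate transporter Slc17a6 rose from 0.0260 to 9.05, somatostatin (Sst) from a listed 0 to 24.3 and tyrosine hydroxylase (Th) from 0.0882 to 7.27, while Gad1 (0.485 and 1.21) and Gad2 (0.386 and 1.72) did not pass the rule. Of 16 expressed glial genes 9 were higher and 1 lower. The gliogenic factors Nfia and Nfix rose to 8.61 and 7.86 from values near 0, while Gfap at 0.311, Aqp4 at 0.0786 and Sox10 at 0.223 stayed below 1 FPKM in EBs.

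**Figure D3:**
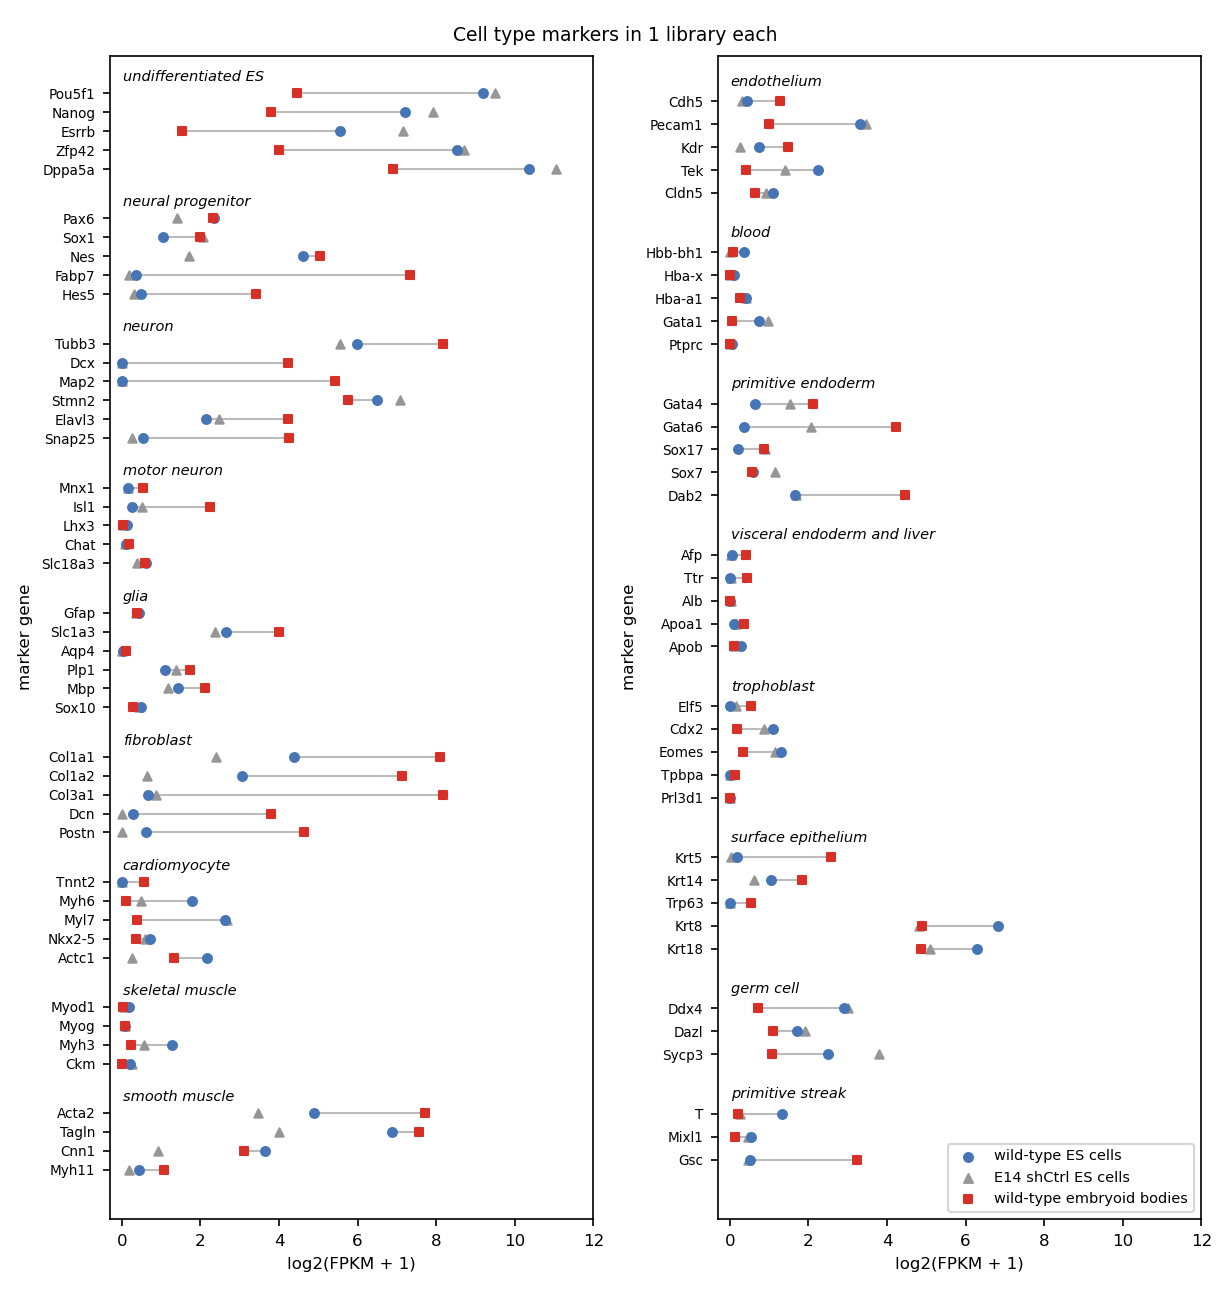
Levels of the cell type markers as log2(FPKM + 1) in wild-type ES cells (blue circles), E14 shCtrl ES cells (grey triangles) and wild-type EBs (red squares), 1 library each; a line joins the 2 wild-type libraries. Fibroblast markers and neuronal markers except Stmn2 move to the right in EBs, ES markers to the left, and markers of blood, liver, skeletal muscle and motor neurons stay near 0 apart from Isl1 and, in ES cells, Myh3.

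A second large group of increases belonged to mesenchyme. All 5 fibroblast markers were higher, their summed level going from 28.4 FPKM in ES cells and 5.61 in E14 shCtrl to 737 in EBs. In the matrix list of 37 genes, all expressed, 33 were higher and none lower (median 2.76). Col1a1 rose from 19.7 to 273, Col1a2 from 7.37 to 138, Tnc from 1.05 to 74.0, Bgn from 1.11 to 69.7, Col14a1 from 0.112 to 39.4 and Postn from 0.523 to 24.1. Of 22 expressed neural crest genes 15 were higher and 4 lower, with Ednrb (0.118 to 13.3), Ednra (0.147 to 14.9), Tfap2b (0.0459 to 9.66) and Cdh11 (2.51 to 98.1) up, and Foxd3, shared with ES cells, down from 19.3 to 2.69. Sox10, the defining factor of migrating crest, was at 0.223 in EBs. In a list of mesenchymal transition regulators 18 of 24 genes were higher and 1 lower: Twist1 rose from 2.23 to 29.9, Zeb1 from 1.16 to 14.8, Snai2 from 0.923 to 11 and Prrx1 from a value near 0 to 13.2.

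Most epithelial genes fell relative to the E36 ES cells, and fewer did relative to E14 shCtrl. Of 39 expressed genes 29 were lower and 1, Krt5, higher, with a median of -1.66. E-cadherin (Cdh1) was at 197 in ES cells, 74.0 in E14 shCtrl and 13.5 in EBs, Epcam at 107, 50.9 and 11, and the splicing regulator Esrp1 at 27.9, 6.91 and 2.41. For Cdh1, Epcam and Esrp1 both ES libraries were above the EBs. Krt8, Krt19 and Cldn6 were at or above the E14 shCtrl level in EBs: Krt8 was at 113 in ES cells, 27.2 in E14 shCtrl and 28.7 in EBs, Krt19 at 62.3, 4.53 and 25, and Cldn6 at 61.7, 12.2 and 17.3. Against both ES libraries 11 of the 39 were lower, and the median against E14 shCtrl was -0.59.

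Lateral mesoderm factors were often higher, while sarcomere genes stayed low. Of 20 expressed cardiac and lateral mesoderm factors 12 were higher and none lower: Tbx2 rose from 0.211 to 24.1, Gata6 from 0.287 to 17.6 (E14 shCtrl 3.22), Hand2 from 0.123 to 11.1 and Tbx5 from 0.0880 to 5.28. Of 23 sarcomere genes 16 were below 1 FPKM in both libraries and of the other 7, 1, Tnni1, was higher and 3 were lower. Tnnt2 stood at 0.469 in EBs and Myl7 fell from 5.13 to 0.311. Of 17 smooth muscle genes 6 were higher and 1 lower against the E36 ES cells (median 0.85), and 12 were higher and none lower against E14 shCtrl (median 1.61). The actins Acta2 (28.7 to 210.4) and Actg2 (0.285 to 34.5) rose. Tagln (115 and 188) and Cnn1 (11.5 and 7.61) did not pass against the E36 cells, but stood at 15.1 and 0.881 in E14 shCtrl and were higher in EBs against that line (differences 3.55 and 2.19). The globin markers Hba-x, Hba-a1 and Hbb-bh1 and the factor gene Gata1 were below 1 FPKM in every one of the 3 libraries, as were Myod1 and Myog. Of 16 expressed endothelial genes 6 were lower and 2 higher, but against E14 shCtrl the counts were 4 and 3, and against both ES libraries 3 and 2. Pecam1 fell from 8.91 (E14 shCtrl 9.97) to 0.985, and Tek from 3.73 to 0.324, though not past the rule from its 1.64 in E14 shCtrl. Of 23 expressed genes listed for extraembryonic endoderm 10 were higher and 4 lower, and 9 were higher than in both ES libraries; of 11 expressed gut, liver and pancreas genes 4 were higher and 3 lower. Gata6, as above, and the endocytic adaptor gene Dab2 (2.13 to 21.1) rose, and Gata4 rose from 0.571 to 3.30 but was at 1.88 in E14 shCtrl, a difference of 0.58. The visceral endoderm and liver genes Afp (0.339), Ttr (0.365) and Apoa1 (0.283) were below 1 FPKM in EBs. Of 17 expressed trophoblast genes 5 were lower and 1 higher, Gata3 (0.695 to 3.87), which was at 1.66 in E14 shCtrl.

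**Figure D4:**
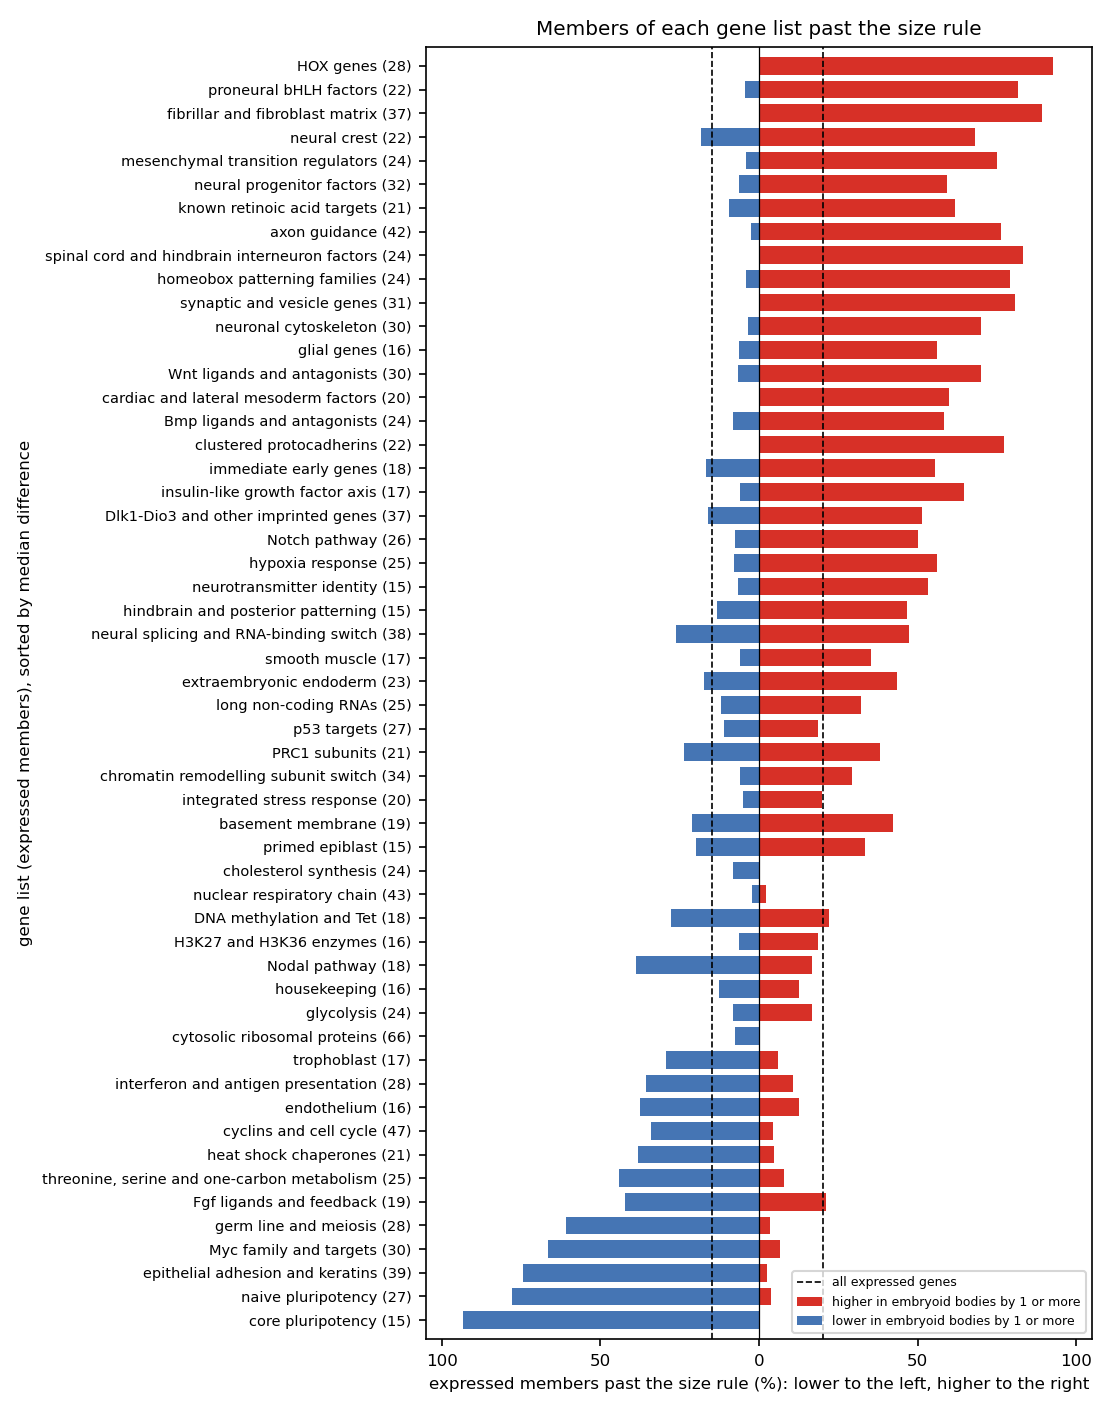
Share of the expressed members of each gene list that were higher (red, right) or lower (blue, left) in wild-type EBs than in wild-type ES cells by at least 1 on the log2(FPKM + 1) scale, for lists of 15 or more expressed members; dashed lines mark the shares over all expressed genes (20.3% and 14.9%). HOX, matrix and interneuron lists extend farthest to the right and core pluripotency farthest to the left, whereas the ribosomal protein, respiratory chain and cholesterol lists stay inside the dashed lines.

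Among 30 expressed Wnt ligands, antagonists and targets 21 were higher and 2 lower. Besides Wnt1, the feedback genes Nkd1 and Axin2, which report on beta-catenin activity, rose from 0.697 to 30.6 and from 5.31 to 25.7, and the antagonist Sfrp1 from 6.19 to 76.5. Of 24 expressed Bmp genes 14 were higher and 2 lower, with antagonists such as Nog (1.15 to 12), Grem1 (0.116 to 13.5) and Bmper (0.112 to 9.41) rising beside the ligand Bmp7 (1.16 to 12.8). Of 26 Notch genes 13 were higher and 2 lower: the ligand Dll1 rose from 2.73 to 11.8, the receptor Notch1 from 6.27 to 16.6 and the targets Hes5 and Nrarp from 0.400 to 9.67 and from 2.17 to 23.1. Of 19 expressed Fgf ligands, receptors and feedback genes 8 were lower and 4 higher, with a median of -0.78 that became -0.11 against E14 shCtrl (7 lower and 6 higher). Over all 31 measured members the median against the E36 cells was -0.03. Among the ligands and the feedback genes that report on Erk activity, Fgf4 fell from 36.8 to 2.12, Fgf17 from 25 to 0.110, Etv5 from 112 to 7.25 and Spry4 from 27.6 to 3.02, while the receptor Fgfr2 rose from 3.37 to 21.3. Of 13 expressed Hedgehog pathway genes 5 were higher and 3 lower. The targets Gli1 and Ptch1 went from 20.3 (E14 shCtrl 19) to 1.88 and from 31.4 to 8.82, whereas the co-receptor genes Gas1, Boc (0.705 to 25) and Cdon (4.56 to 40.0) rose, and the ligand gene Shh was at 1.07 FPKM in EBs. Of 17 expressed genes of the insulin-like growth factor axis 11 were higher and 1 lower, with Igf2 at 10.8 and 127 and its binding proteins Igfbp4 at 11.9 and 192 and Igfbp5 as given above.

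Polycomb complexes repress developmental genes through histone marks. No PRC2 gene rose and 4 of 13 fell: Epop, a PRC2 partner of ES cells, from 187 to 14.2, Jarid2 from 68.1 to 18.9, Eed from 72.3 to 25 and Mtf2 from 61.5 to 20.8 summed over its transcripts. The catalytic subunit Ezh2 (45.9 and 38.5) and Suz12 (82.3 and 45.0) stayed within the rule. In PRC1, 8 of 21 genes rose and 5 fell. Cbx7, the chromodomain subunit typical of ES cells, fell from 51.8 to 5.74 while Cbx8 rose from 0.749 to 4.74. Phc1 fell from 88.7 to 10.7 while Phc2 rose from 13.4 to 43.8, and Pcgf6 fell from 38.2 to 10.7 while Bmi1 (Pcgf4) rose from 2.53 to 10.7. Among the enzymes of DNA methylation, Dnmt3l (155 to 6.51), Dnmt3b and the demethylase Tet1 (50.1 to 6.57) fell, Tet3 rose from 2.84 to 12.9, and Dnmt3a stayed at 17.2 and 17.3. The linker histone H1f0, which marks cells leaving the cycle, rose from 16.1 to 119 and the macroH2A genes Macroh2a1 and Macroh2a2 from 17.9 to 59.9 and from 9.91 to 48.4. Of 34 remodelling subunit genes 22 stayed within the rule, 10 were higher (29.4%) and 2 lower (5.88%). Over all expressed genes these shares were 20.3% and 14.9%, and 9092 of 14047 stayed within the rule. In the BAF complex the progenitor subunit gene Actl6a fell from 102 to 42.7 and the neuronal Actl6b rose from a listed 0 to 4.11, and the ATPase gene Smarca2 rose from 0.275 to 10.7 beside Smarca4 at 19.5 and 19.4. Of 16 enzymes acting on H3K27 or H3K36, 12 stayed within the rule, 3 were higher (18.75%) and 1 lower (6.25%). Kdm6b, an H3K27 demethylase, rose from 10.8 to 37.3, and Setd2 was at 20.3 and 16.4.

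RNA-binding proteins moved both ways. Lin28a, the let-7 blocker of ES cells, fell from 187 to 5.08 and Trim71 from 45.8 to 3.54. Ptbp1, the repressor of neural exons, fell from 214 to 73.0 while its neural paralogue Ptbp2 rose from 17.4 to 59.7, and Rest, the repressor of neuronal genes, fell from 43.1 to 10.7 while Srrm4, a neural splicing factor known to act on Rest, rose from 0.172 to 9.09. Elavl4 (0.195 to 16.6), Nova1 (1.16 to 9.81) and Celf3 (0.30 to 15.3) rose too. In all, 18 of 38 genes of this list were higher and 10 lower, but 2 of the lower ones, Elavl2 and Rbfox2, had positive differences when transcripts were summed (0.74 and 0.90).

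**Figure D5:**
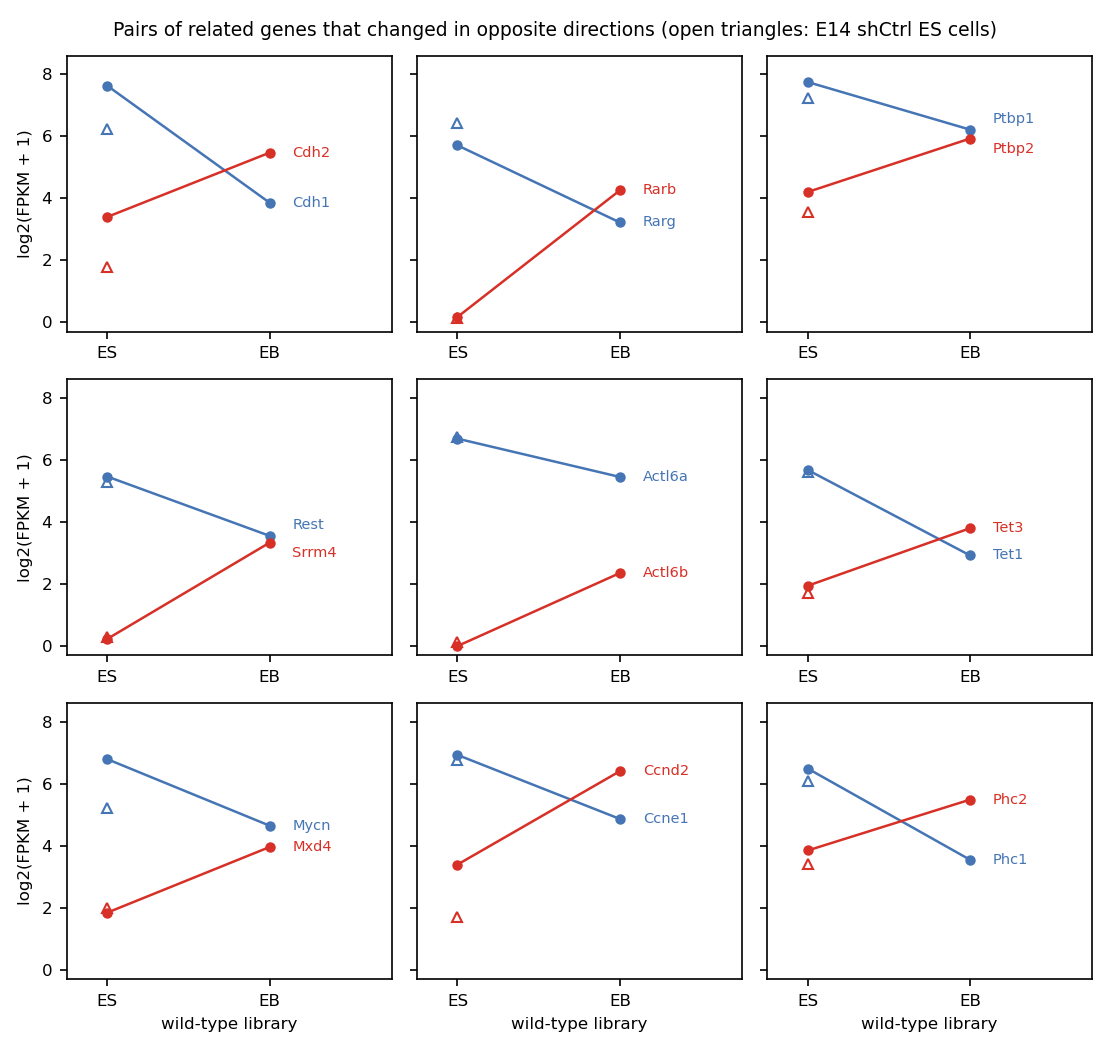
Level of 9 pairs of related genes as log2(FPKM + 1) in wild-type ES cells and wild-type EBs, 1 library each, joined by lines; open triangles give E14 shCtrl ES cells. The pairs were picked after the values were seen, as genes past the size rule in opposite directions: the blue gene falls and the red gene rises in each panel.

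Transcripts of 1 gene also moved in opposite directions. Of 984 genes with at least 2 transcripts at 5 FPKM or more, 46 (4.67%) had a transcript that rose and another that fell by the rule, and 24 of the 46 did so against E14 shCtrl as well. The widest shift was in Psap, the precursor of lysosomal saposins, where one transcript went from 1.69 to 45.6 and another from 27.4 to 1.00; in the Eed-knockout EB library the same transcripts stood at 6.01 and 44.6, so the shift did not recur there. In tropomyosin 1 (Tpm1) one transcript rose from 20.6 to 108 and another fell from 18.8 to 0.127; in Eed-knockout EBs they stood at 109.9 and 1.51, but the second was already at 0.188 in Eed-knockout ES cells. In Hmga1, a chromatin architectural gene that fell from 141 to 53.7 in sum, the main transcript fell while a minor one rose to 6.05. From Eed-knockout ES cells to Eed-knockout EBs these Hmga1 transcripts moved the same way (25.6 to 2.36 and a listed 0 to 6.67). Abi1, an actin regulator, had one transcript rising from 0.439 to 11.5 and another falling from 6.08 to 0.00345, and Slc44a2, a choline transporter, 2.34 to 24.5 and 12.4 to 1.17. Luc7l, a splicing factor, went from 3.09 to 11.4 and from 28.3 to a listed 0, and Wars, a tRNA synthetase, from 0.00129 to 9.08 and from 10.1 to 1.72. In E14 shCtrl the Wars transcripts stood at 6.53 and 5.38, and the pair did not pass the rule both ways against that line. Between Eed-knockout ES cells and EBs the Luc7l pair moved the same way (1.87 to 13.0 and 17.6 to a listed 0). The first Wars transcript fell there, from 4.05 to 0.522. These values are estimates that divide shared reads among transcripts in 1 library each, and Zfp207 shows their reach: its main transcript went from 69.6 to a listed 0 while the sum over transcripts went from 159.5 to 92.5 (difference -0.78).

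Imprinted genes, many of which control fetal growth, were more often higher (19 of 37) than lower (6). Plagl1, a regulator of the imprinted network, rose from 4.61 to 198, Peg3 from 12.7 to 205, Dlk1 from 1.41 to 58.9, and Mest from 101 to 383. The maternally expressed RNA gene Meg3 rose from 87.2 to 244, whereas its neighbour Rian (96.2 and 191) did not pass the rule. Phlda2, a placental growth restrainer, fell from 80.8 to 2.83. Among long non-coding RNAs, Pantr1, which lies beside Pou3f3, rose from 0.0935 to 45.4, Miat from 1.48 to 62.2 and Rmst, a neuronal RNA, from a listed 0 to 7.04, and Neat1 fell from 34.6 (E14 shCtrl 114) to 4.68.

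Of 47 expressed cyclin and cell cycle genes 16 were lower and 2 higher (median -0.71). Ccne1 fell from 121 to 28.1, Mybl2 from 119 to 10.8 and Mcm5 from 182 to 48.8, while Mki67, a mark of cycling cells, was at 34.0 and 37.7 and Top2a at 218 and 161. Ccnd2 rose from 9.49 to 83.5 and Ccng2, linked to cell cycle exit, from 5.54 to 51.9. Of the 11 CDK inhibitor and pocket protein genes 7 were higher and none lower, among them Cdkn1a (19 to 81.0), Cdkn1b (10.1 to 29.9) and Cdkn1c (23.7 to 94.8). Of 30 Myc family and ribosome-biogenesis genes 20 were lower and 2 higher (median -1.5): Mycn fell from 109.6 to 24.0 (E14 shCtrl 36), Srm from 204 to 40.6 and Ncl from 329.7 to 98.0, and Mxd4, a Myc antagonist, rose from 2.58 to 14.5. Cytosolic ribosomal protein genes stayed within the rule for 61 of 66, with a median of -0.35, and respiratory chain genes for 41 of 43.

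Of 25 genes of threonine, serine and one-carbon metabolism 11 were lower and 2 higher, the 11 including Tdh, the glycine cleavage gene Gldc (69.8 to 13.7) and Mthfd1 (79.2 to 17.0). Of 25 hypoxia-response genes 14 were higher and 2 lower: Vegfa rose from 3.80 to 36.7, P4ha1, a collagen hydroxylase, from 7.20 to 55.8, Egln1 from 10.2 to 65.7 and Bnip3 from 35.2 to 136, while Hif1a was at 36.2 and 29.8. Of 24 glycolysis genes 18 stayed within the rule, 4 were higher (16.7%) and 2 lower (8.33%), not far from the 20.3% and 14.9% over all expressed genes. The neuronal enolase Eno2 rose from 1.23 to 17.4. Among heat shock genes 8 of 21 were lower than in the E36 ES cells (median -0.73), with Hsp90aa1 at 1280.3 and 324. Against both ES libraries 5 were lower, and the median against E14 shCtrl was -0.16. Serpinh1, the collagen chaperone, rose from 34.7 to 219.6. Immediate early genes, which respond to handling as well as to signals, were higher for 10 of 18, with Fos at 2.04 and 63.6, Fosb at 0.229 and 22.2 and Jun at 9.08 and 92.9.

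For some other groups too the values depended on the undifferentiated line. Interferon and antigen presentation genes had a median of -0.57 against the E36 ES cells and 0.85 against E14 shCtrl. Gbp2 was at 29.4 in ES cells, 0.791 in E14 shCtrl and 2.44 in EBs, Irgm1 at 16.2, 1.41 and 3.87, and Psmb10 at 55.6, 10.1 and 8.31, while B2m, at 21.9, 29.0 and 69.9, was highest in EBs against either. The tumour suppressor Trp53 was at 239 in ES cells, 63.7 in E14 shCtrl and 61.7 in EBs, so its fall held against the E36 cells alone. The integrated stress response list had a median of 0.03 against the E36 cells and -0.80 against E14 shCtrl, with the amino-acid response gene Asns at 93.1, 187 and 58.0. Among 16 housekeeping genes 12 stayed within the rule, 2 were higher (12.5%) and 2 lower (12.5%), not far from the 20.3% and 14.9% over all expressed genes. Hprt stood at 114 in ES cells, 35.8 in EBs and 0.567 in E14 shCtrl; some E14 sublines are known for an inactive Hprt gene.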

How the data were processed

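RNA was measured in 6 libraries, 1 per group, prepared with a TruSeq RNA kit per the labels' protocols. The deposited FPKM values are the authors' own, 1 per RefSeq transcript. The submitters' processing notes name TopHat, Cuffdiff and mm9, without versions. FPKM carries no counts, so no sampling error per gene is given; from the steps of low transcripts, the EB and E14 shCtrl libraries were each 1.19 times as deep as the ES library. Transcripts were matched to symbols through the RefSeq table of GRCm38.p6 (29300 of 29851), and each gene is represented by whichever of its transcripts had the greatest average across the 6 libraries. Differences are of log2(FPKM + 1), called at 1, over genes at 1 FPKM or more in ES or EB wild type. No test was possible with 1 library per group. Genes were named by these rules: up to 4 expressed members per list with the largest difference at 5 FPKM or more, textbook members of a list, the 20 largest increases and 20 largest decreases (numbered loci and small RNA genes left out), housekeeping genes, and up to 8 genes with opposite transcripts. The members, the 72 lists and the drawn pairs were chosen with earlier results of these data known. The script was tested on simulated data. Python 3.11.15, pandas 2.3.3 and NumPy 2.4.6 were used. Some results are not reported here.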

Additional observations from a re-analysis of the deposited data

How the results depend on the processing

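With a size rule of 2 in place of 1, 936 genes were higher and 495 lower in the EBs. Of the 307 genes named, 252 passed the size rule of 1 and 227 of these passed it the same way under all 5 alternatives. Among genes past the rule, and list medians of at least 0.5 in size, directions turned when E14 shCtrl replaced the E36 ES cells for the interferon list (median 0.85), Cldn6 (0.47), Gbp2 (0.94), Hprt (4.55), Irgm1 (1.01), Krt19 (2.24), Krt8 (0.074), Tbx3 (-0.14) and Tpm1 (1.13). Cnn1 (-0.54 to 2.19) and Stra8 (0.53 to -1.88), within the rule against the E36 cells, passed it in the other direction against E14 shCtrl. List medians nearer 0 also changed sign with that line, for the Nodal pathway (0.043), primed epiblast (0.61), blood (0.81), cholesterol synthesis (0.38) and the integrated stress response (-0.80). Directions turned when transcripts were summed for Elavl2 (0.74), Rbfox2 (0.90) and Tpm1 (0.41). The cause was not tested. Rescaling to equal FPKM totals shifts every difference of a well-expressed gene by 0.28, so lists with a median near 0 have no fixed sign. Genes below 1 FPKM in both libraries were not called. No paired analysis was possible because each group had 1 library and no test was run.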
